A study of Mus musculus with 28 samples.

Results

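Potassium channel genes of the remodeling vein were followed from the contralateral jugular vein through early, mid and late carotid–jugular arteriovenous fistulas (AVFs). The members were selected on their bulk counts, as the genes whose symbols begin with *Kcn* and whose raw count in the bulk RNA sequencing averaged at least 20 over all 25 libraries, AVFs included. Of 99 such symbols, 50 passed and 49 did not, with means of 25.6 to 27.2 counts just inside the limit (*Kcnj13*, *Kcnh7*, *Kcne1l*) and 16.6 to 17.8 just outside it (*Kcnj12*, *Kcnj11*, *Kcnv2*). Because the limit was set on the mean of all groups, a gene could pass through 1 group alone: 32 members averaged at least 20 counts in all 4 groups, 11 in 3, 5 in 2 and 2 in 1. Without the library in which each was highest, 4 members (*Kcnu1*, *Kcnk10*, *Kcnh7* and *Kcnj13*) averaged under 20. Counts over the members are therefore descriptions of the genes that passed. The 50 members comprised 20 voltage-gated channel genes, 7 inward rectifiers, 7 two-pore domain channels, 6 calcium- or sodium-activated channels, 9 auxiliary subunits or interacting proteins, and *Kcnq1ot1*, an antisense RNA that encodes no channel.

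All vessels came from C57BL/6 mice of both sexes that had a 5/6 nephrectomy and, weeks later, the end of a jugular vein joined to the side of a carotid artery. The controls were contralateral jugular veins (n = 7, 5 from females), compared with outflow veins of early AVFs (n = 8, 3 from females, nominal day 3), mid AVFs (n = 5, 3 from females, nominal day 10) and late AVFs (n = 5, 3 from females, nominal day 21). Each bulk library was 1 vessel. The 3 single-cell libraries, contralateral, early and late, each pooled vessels of male and female mice, so the single-cell values carry no replicate spread. By the mean days the paper gives, their early and late AVFs were taken later than the bulk AVFs of the same name.

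Potassium channels let potassium leave the cell and hold its membrane potential negative. In vascular smooth muscle this limits calcium entry through voltage-gated calcium channels and so favors relaxation; in endothelium and leukocytes it sustains the driving force for calcium entry. The channels differ in what opens them: voltage, intracellular calcium, ATP and nucleotides, or stretch and pH. Auxiliary subunits set their trafficking and gating.

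Total counts ran from 20254173 to 67457501 per bulk library. Contralateral veins were the most variable group, with a median pairwise Spearman correlation across genes of 0.738, against 0.893, 0.970 and 0.962 among the early, mid and late groups. The mural cell markers, summed as counts per 1000000 (CPM), were 9310 to 21308 in contralateral veins and 1013 to 2336 in early AVFs, without overlap, and endothelial markers 2184 to 4393 against 286 to 643. Monocyte and macrophage markers moved the other way, from 1902 to 7641 in contralateral veins to 10659 to 30657 in early AVFs. In bulk tissue, fewer cells of a type and less RNA per cell cannot be told apart. Neuron marker sums were 23.8 to 149.9 CPM in most libraries but 3692 in early AVF 7, 1121 in late AVF 16 and 520.1 in late AVF 24. Skeletal muscle markers ranged from 1.11 to 88.5 CPM in contralateral veins and from 674 to 7326 in mid AVFs. Thyroid and parathyroid marker sums were 0 to 27.8 CPM in contralateral veins. They reached 14269 in early AVF 1, 1701 in mid AVF 12 and 5588 in late AVF 19.

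The 250 bases upstream of the annotated start are shown for 3 members that the comparisons turn on: *Kcnj8*, which was lower in early AVFs, *Kcnj2*, which was higher at all 3 stages, and *Kcnn4*, whose level in macrophages differed among the single-cell libraries. The sequences are from RefSeq on GRCm38.p6, on the gene's strand, 5′ to 3′, with capitals marking GAGGAA (a core that Ets family factors such as PU.1 bind) and GGGCGG (the GC box bound by Sp1) on either strand. *Kcnj8* lies at chr6:142571615-142571864 (minus strand), *Kcnj2* at chr11:111065914-111066163 (plus strand) and *Kcnn4* at chr7:24370013-24370262 (plus strand).
Kcnj8: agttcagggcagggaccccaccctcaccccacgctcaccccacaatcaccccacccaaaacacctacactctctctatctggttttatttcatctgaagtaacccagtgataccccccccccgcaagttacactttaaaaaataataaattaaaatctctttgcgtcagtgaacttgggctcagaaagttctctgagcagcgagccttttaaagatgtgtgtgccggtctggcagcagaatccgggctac
Kcnj2: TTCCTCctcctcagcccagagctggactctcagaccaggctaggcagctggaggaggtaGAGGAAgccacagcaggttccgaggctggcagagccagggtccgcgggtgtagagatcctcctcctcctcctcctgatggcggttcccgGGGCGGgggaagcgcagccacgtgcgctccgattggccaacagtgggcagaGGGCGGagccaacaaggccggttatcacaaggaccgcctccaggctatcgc
Kcnn4: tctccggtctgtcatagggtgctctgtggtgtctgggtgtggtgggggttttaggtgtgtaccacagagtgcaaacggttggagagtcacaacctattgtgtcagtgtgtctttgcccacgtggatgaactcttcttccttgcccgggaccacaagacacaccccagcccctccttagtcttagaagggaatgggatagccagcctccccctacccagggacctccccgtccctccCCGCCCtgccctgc
The *Kcnj8* window held neither motif, that of *Kcnj2* held both GAGGAA and GGGCGG, and that of *Kcnn4* held GGGCGG only. Of the 39 members with an entry, 14 held GAGGAA (35.9%, against 25.9% of 27025 genes) and 20 held GGGCGG (51.3%, against 35.4%). The CArG box bound by serum response factor was found in 0 of the 39 and in 1.62% of all genes. These matches describe letters in a window and were not tested.

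Early AVFs differed from contralateral veins in 13 of the 50 members, of which 7 were higher and 6 lower. The lower genes included *Kcne4*, *Kcnab1*, *Kcnj8*, *Kcnk3* and *Kcnc2*, and the 7 higher were *Kcnab2*, *Kcnj2*, *Kcnq5*, *Kcnj10*, *Kcnh7*, *Kcnc4* and *Kcnk10*. Among the higher, only *Kcnab2* averaged at least 20 raw counts in contralateral veins (36.4). The others averaged 0 to 13.6 there and passed the limit through AVF counts, so the number of higher calls depends in part on the selection. The same limit applied to all tested genes. A gene was called when its Benjamini–Hochberg adjusted p in edgeR's quasi-likelihood test was below 0.01 over 16849 genes and its log2 fold change was at least 1 in size. By the same rule 14.5% of all tested genes were called, 9.07% higher and 5.41% lower. In mid AVFs 6 members were called beside 8.78% of all genes, 4 of them higher (6.37% of all genes) and 2 lower (2.40%). In late AVFs 6 were called beside 8.43%, 5 higher (6.35%) and 1 lower (2.08%). The members' median log2 fold change was 0.05 at the early, 0.63 at the mid and 0.93 at the late stage, against 0.05, 0.07 and 0.09 over all genes. The 3 comparisons share the same contralateral veins. Markers of cell types moved with these calls in early AVFs: 6 of 8 mural and 6 of 8 endothelial markers were called lower, and 7 of 9 monocyte and macrophage and 5 of 6 neutrophil markers higher, with the sums given above. Their part in the calls was not tested.

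**Figure D1:**
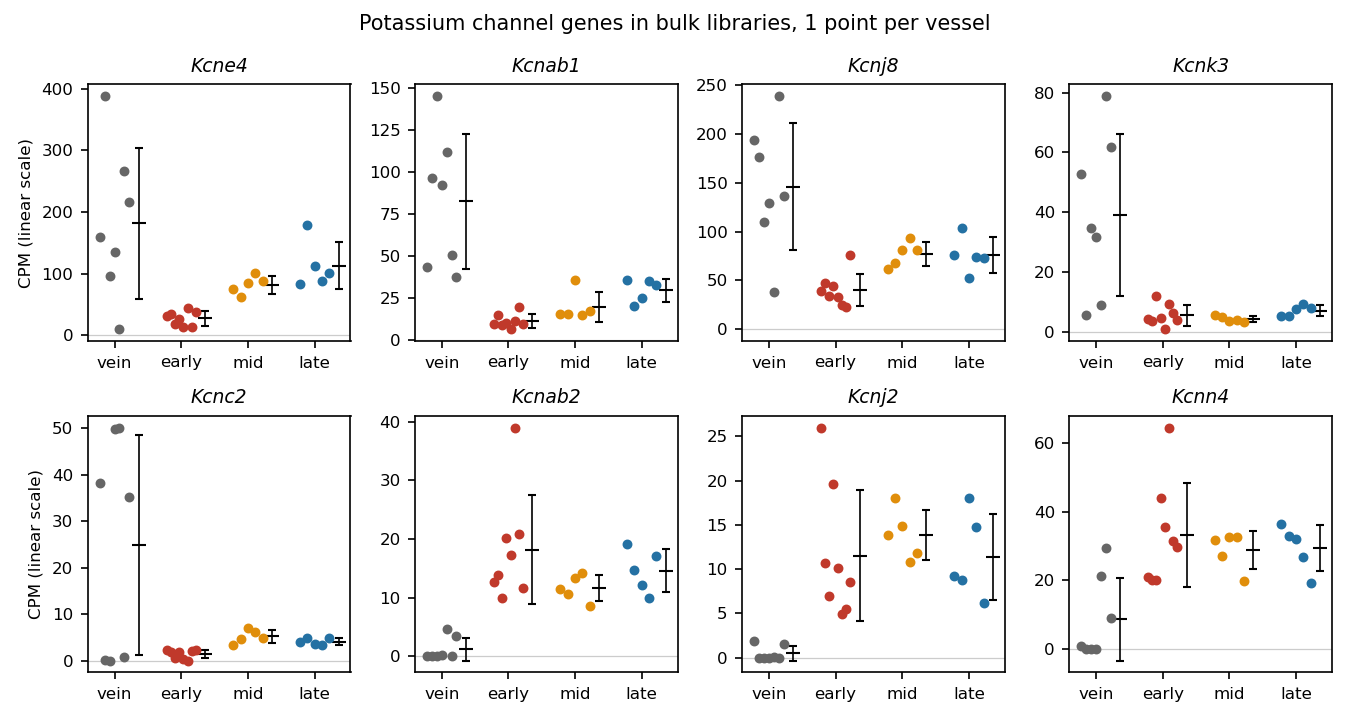
CPM (linear axis) of 8 potassium channel genes in each vessel, 1 point per vessel, in contralateral veins (vein) and early, mid and late AVFs, with the mean and SD of each group beside the points. In *Kcnab1* the 8 early AVFs lay between 6.49 and 19.7 CPM, all below the contralateral minimum of 37.7.

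Among the lower genes, *Kcnab1* had the least overlap between groups. This gene, which encodes the beta subunit Kvβ1 of voltage-gated channels, ranged from 37.7 to 145 CPM (median 92.4) in contralateral veins and from 6.49 to 19.7 (median 9.93) in early AVFs. The mid AVFs had 15.7, 15.4, 36, 14.8 and 17.3 CPM, and the late AVFs 35.9, 20.3, 25, 35 and 32.8. No AVF at any stage reached the lowest contralateral vein. *Kcnab1* fell by 2.85 on the log2 scale in early AVFs (SE 0.35, adjusted p = 1.11e-06) and by 2.06 in mid AVFs (SE 0.40, adjusted p = 0.000639), and its late difference of -1.47 (SE 0.39, adjusted p = 0.0103) did not pass. Members whose early AVFs all lay below the contralateral veins numbered 1 of 50, beside 1.86% of all genes.

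*Kcne4*, an auxiliary subunit that inhibits several voltage-gated channels, had 9.90 to 388 CPM in contralateral veins (median 159.8) and 13.4 to 44.3 (median 29.0) in early AVFs. It then stood at 75.1, 62.4, 84.3, 100.4 and 87.9 CPM in mid AVFs and at 84.0, 179, 113, 88.5 and 101 in late AVFs. The early AVFs lay below 6 of the 7 contralateral veins, while contralateral vein 35 was the lowest of all. *Kcne4* fell by 2.72 in early AVFs (SE 0.44, adjusted p = 4.15e-05), and the mid and late differences of -1.15 and -0.68 did not pass (adjusted p = 0.121 and 0.394). It was also the one member called between late and early AVFs, 4.10-fold higher in late (log2 2.04, SE 0.45, adjusted p = 0.00916). The 2 groups did not overlap. That comparison called 1.42% of all genes, 0.528% as higher. Without 1 library at a time, 21 of the 25 fits did not call it, with log2 values of 1.81 to 2.13 and adjusted p of at most 0.041.

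*Kcnj8* encodes Kir6.1, the pore of the vascular ATP-sensitive channel. It had 38.1 to 239 CPM (median 136) in contralateral veins, 22.4 to 76.0 (median 36.6) in early AVFs, 61.6, 67.8, 81.1, 93.7 and 81.4 in mid AVFs, and 75.6, 103, 52.2, 74.2 and 73.3 in late AVFs. The ranges overlapped at every stage. *Kcnj8* fell by 1.86 in early AVFs (SE 0.30, adjusted p = 4.60e-05), and the mid and late differences were -0.92 and -0.95 (adjusted p = 0.072 and 0.0655). *Abcc9*, the sulfonylurea receptor that partners this pore in vascular smooth muscle, averaged 226 CPM in the contralateral group and 64.0 CPM in early AVFs and was called lower (log2 -1.82, adjusted p = 0.000142).

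*Kcnk3*, the acid-sensitive two-pore channel TASK-1, carries a background current that sets the resting potential. It had 5.73 to 78.8 CPM in contralateral veins (median 34.6) and 0.847 to 11.9 (median 4.46) in early AVFs. Its mid values were 5.72, 5.00, 3.55, 4.10 and 3.37 CPM, all below the contralateral veins, and its late values 5.17, 5.39, 7.67, 9.29 and 7.92. *Kcnk3* was the only member called lower at all 3 stages, with log2 fold changes of -2.81 (adjusted p = 0.000362), -3.17 (adjusted p = 0.0013) and -2.47 (adjusted p = 0.00885). The late call was lost in 18 of the 25 fits that left out 1 library, where the log2 value stayed between -2.66 and -2.25 and the adjusted p was at most 0.0301.

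*Kcnc2*, the fast delayed rectifier Kv3.2, had 0.0887 to 50.1 CPM in the contralateral group (median 35.1) and 0.0472 to 2.39 (median 1.87) in early AVFs. Contralateral veins 28, 31 and 632, at 0.1195, 0.0887 and 0.9396 CPM, lay within the early range. The fitted fall of *Kcnc2* in early AVFs was 4.07 (SE 0.98, adjusted p = 0.00277).

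**Figure D2:**
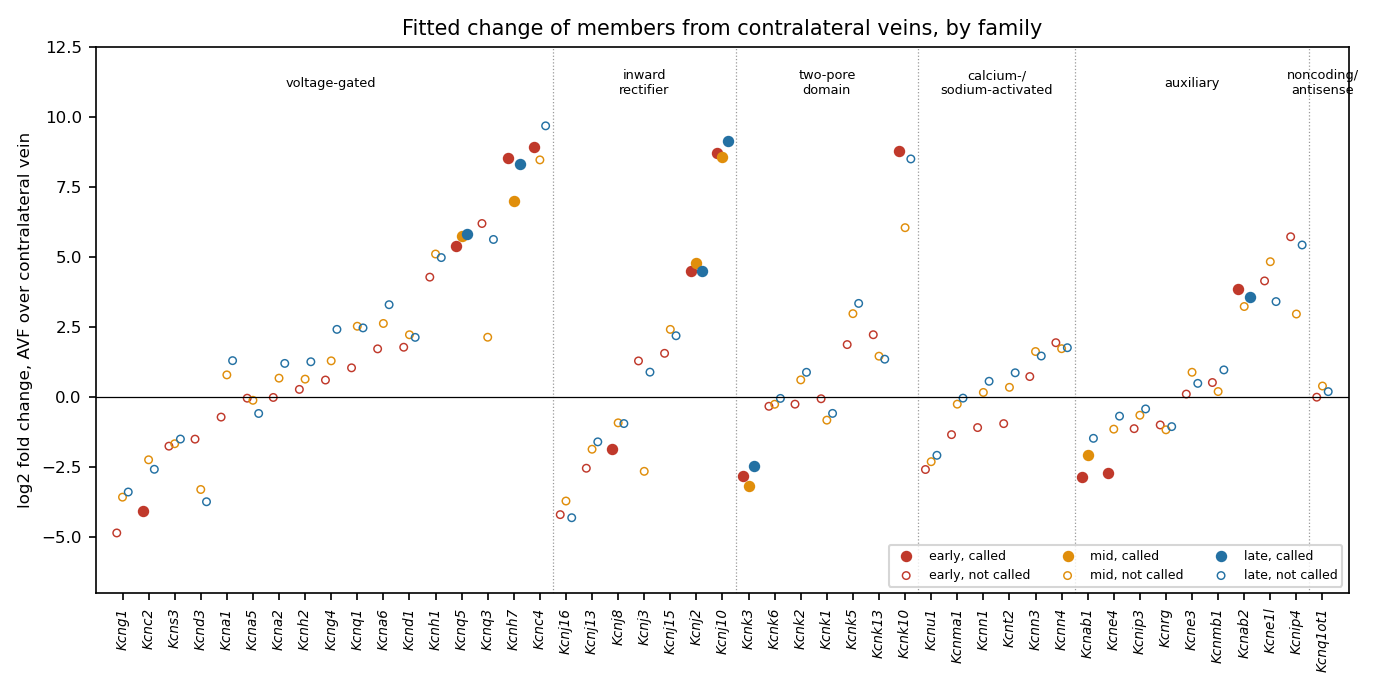
Fitted log2 fold change (edgeR) of potassium channel genes in early, mid and late AVFs against contralateral veins, by channel family, with filled points for called and open points for uncalled changes. Voltage-gated channels held 3 of the higher early calls, the calcium- or sodium-activated channels held 0, and fitted values of genes at 0 in all contralateral veins depend on the prior count and are no bound.

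*Kcnj2* and *Kcnab2* were the higher genes with the clearest separation of groups. *Kcnj2* encodes Kir2.1, a strong inward rectifier that stabilizes the resting potential. It was at 0 in 4 of 7 contralateral veins and at most 1.90 CPM in the others, while early AVFs had 4.93 to 26.0 CPM (median 9.31). Mid AVFs had 13.9, 18.1, 14.9, 10.8 and 11.9 CPM, and late AVFs 9.26, 8.83, 18.0, 14.8 and 6.18. Every AVF at every stage lay above every contralateral vein. Its log2 fold change was 4.52 at the early (SE 1.06, adjusted p = 0.00238), 4.79 at the mid (SE 1.11, adjusted p = 0.00326) and 4.50 at the late stage (SE 1.10, adjusted p = 0.00539). Leaving out late AVF 19 (log2 4.28) or late AVF 23 (log2 4.39) ended the late call. *Kcnj2* was highest of its stage in early AVF 1, mid AVF 12 and late AVF 19, the libraries with the highest thyroid and parathyroid sums. Early AVF 4 had 19.6 CPM of *Kcnj2* at a sum of 16.8. The part of that tissue was not tested.

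*Kcnab2*, the beta subunit Kvβ2, had 0 to 4.69 CPM in contralateral veins (median 0.119) and 9.90 to 39.0 (median 15.7) in early AVFs. Its mid values were 11.5, 10.6, 13.4, 14.2 and 8.61 CPM, and its late values 19.2, 14.7, 12.2, 9.97 and 17.1. Again no AVF overlapped a contralateral vein. *Kcnab2* was 14.7-fold higher in early AVFs (log2 3.88, SE 0.91, adjusted p = 0.00235), with log2 values of 3.23 in mid (adjusted p = 0.0171, not called) and 3.56 in late AVFs (adjusted p = 0.00957). The late call was lost in 22 of the 25 fits without 1 library, with log2 values of 3.26 to 4.46 and adjusted p of at most 0.0213. *Kcnab1* and *Kcnab2*, the 2 Kvβ subunit genes among the members, were thus called in opposite directions in early AVFs. *Kcnj2* and *Kcnab2* were the 2 members with every early AVF above the contralateral veins, beside 4.88% of all genes. The mid AVFs lay wholly above the contralateral veins in 8 members (11.5% of all genes) and wholly below in 2, *Kcnab1* and *Kcnk3* (3.30%), and the late AVFs in 9 (10.1%) and 1, *Kcnab1* (2.91%).

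The other 5 higher genes were at 0 or nearly so in contralateral veins and low in AVFs. *Kcnj10* (Kir4.1, an inward rectifier of glia), *Kcnh7* (an Erg-type voltage-gated channel), *Kcnc4* (Kv3.4) and *Kcnk10* (the stretch-sensitive two-pore channel TREK-2) had no count in any of the 7 contralateral veins. A floor of 3 counts over that group corresponded to 0.0173 CPM. It covers counting error only, not the spread between veins. The mean of *Kcnj10* was 101 times this floor at the early, 91.0 times at the mid and 133 times at the late stage. That of *Kcnh7* was 87.8, 30.3 and 76.6 times the floor. Each of the 2 genes read 0 in 2 of 8 early AVFs. Without early AVF 7 the early ratios to the floor were 38.5 and 42.7. Without late AVF 16 and late AVF 24 the late ratios were 83.1 and 30.3. Both were called at all 3 stages. *Kcnj10* had 2.09, 1.19, 1.33, 0.459 and 2.78 CPM in mid AVFs and 4.72, 1.35, 1.31, 1.64 and 2.44 in late AVFs, so that each of these vessels lay above the contralateral veins. *Kcnq5*, a slow voltage-gated channel of the M-current family, was also called at all 3 stages, from 0 to 0.206 CPM in contralateral veins to 0.432 to 6.35 in mid and 0.587 to 5.89 in late AVFs (log2 5.40, 5.74 and 5.83; adjusted p = 0.0029, 0.0038 and 0.00371). Its mid call was lost without mid AVF 12 (log2 5.02) and its late call without late AVF 23 (log2 5.29).

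Several of these genes were highest in the libraries with neuron markers. Of 12 neuron markers 8 were called higher in early AVFs, beside 9.07% of all genes, and 2 were at 0 in all contralateral veins. Their sum was 3692 CPM in early AVF 7 but 55.2 to 104 in the other early AVFs. The median over all early AVFs was 72.7, against 56.4 in contralateral veins. Early AVF 7 alone carried 51.3% of all *Kcnk10* counts, 61.9% of *Kcnq3*, 50.5% of *Kcnip4*, 48.8% of *Kcnj3*, 30.2% of *Kcnh7*, 28.4% of *Kcnc4*, 24.6% of *Kcnj10* and 20.4% of *Kcnq5*. *Kcnc4* was at 0 in 6 of 8 early AVFs and at 12.8 CPM in early AVF 7. Skeletal muscle marker sums were highest of their group in early AVF 10 (4498 CPM), mid AVF 12 (7326) and late AVF 23 (8900). In mid AVF 12 and late AVF 23 *Kcnc4* (4.59 and 5.86 CPM) and *Kcnq5* (6.35 and 5.89) were also highest of their stage. Early AVF 10 had 3.14 CPM of *Kcnc4*, while early AVF 1, with a muscle sum of 3772, had 0. The part of either tissue in these values was not tested. Without early AVF 7, late AVF 16 and late AVF 24, the mean of *Kcnk10* in early AVFs was 0.192 ± 0.255 CPM (SD, n = 7) in place of 1.81 ± 4.59 (n = 8), and that of *Kcnj10* 0.664 ± 0.616. In that fit, chosen after seeing the data, 10 of the 13 early calls were kept (beside 11.7% of all genes called), and *Kcnq5* (log2 4.23), *Kcnc4* and *Kcnk10* lost theirs. All 6 mid calls were kept. With 3 late AVFs left, *Kcnab2* (log2 3.31, adjusted p = 0.0635), *Kcnk3* (log2 -2.39, adjusted p = 0.0935) and *Kcnj2* (log2 4.78, adjusted p = 0.0150) were no longer called at the late stage, nor *Kcne4* between late and early (log2 2.10, adjusted p = 0.113), at fold changes close to those with all libraries. *Kcnj10* kept all 3 calls, as did *Kcnh7*, which is a member only with early AVF 7 in the mean. *Kcnc4* also lost its early call in 19 of the 25 fits without 1 library, early AVF 7 among them (log2 6.78), and *Kcnk10* in 8, namely without early AVF 7 (log2 5.58) or without any 1 of the contralateral veins (log2 8.79 to 8.85). These log2 values are fitted against a group at 0 and are no bound.

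**Figure D3:**
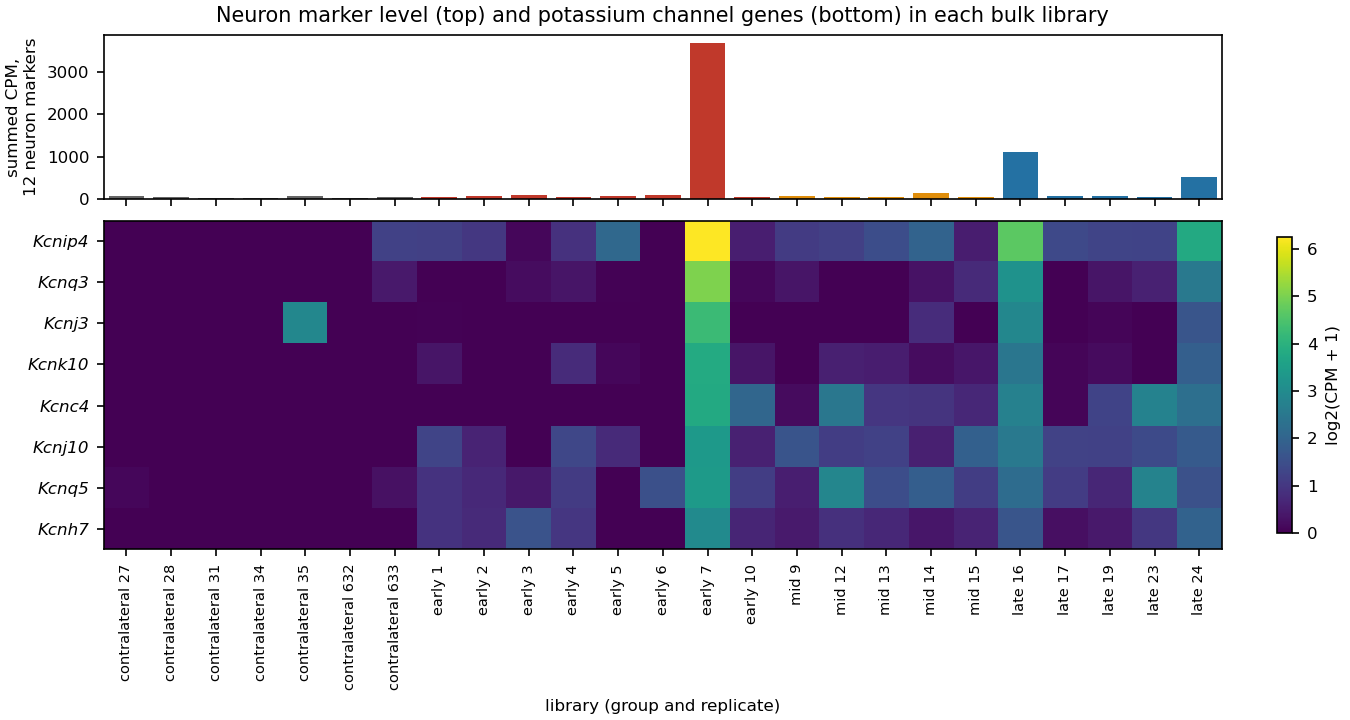
Summed CPM of 12 neuron markers (bars, linear axis) above the log2(CPM + 1) of 8 potassium channel genes (color) in each bulk library. Early AVF 7, late AVF 16 and late AVF 24 have marker sums of 3692, 1121 and 520.1, and early AVF 7 is the brightest column for all 8 genes.

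The early calls did not all hold within 1 sex or 1 pair of groups. With female mice alone (5 contralateral, 3 early), *Kcnab1* (log2 -2.89) and *Kcnq5* (log2 7.69) were called (4.57% of all genes were), and the other 11 kept their direction with adjusted p of 0.0198 to 0.185. The 3 early females include early AVF 7, where *Kcnq5* was at 9.65 CPM, against 1.86 in early AVF 6 and 1.19 in early AVF 10. With only the contralateral and early libraries in the fit, 4 members were called (5.86% of all genes), *Kcne4*, *Kcnab1* and *Kcnj8* among them. The 9 others kept their direction with adjusted p of 0.0113 to 0.0624, such as *Kcnk3* at a log2 value of -2.74 and *Kcnj2* at 4.53.

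The 7 other members named for a high bulk level had no call. *Kcnn4*, the intermediate-conductance calcium-activated channel KCa3.1 of leukocytes, had 0 to 29.5 CPM in contralateral veins (median 0.854) and 20.04 to 64.5 (median 30.6) in early AVFs, with overlap. Its log2 value was 1.94 at the early stage (SE 0.97, adjusted p = 0.152), then 1.73 and 1.76 (adjusted p = 0.300 and 0.294). *Kcnj15* (Kir4.2) was at 0 in 5 of 7 contralateral veins and at 44.9 CPM in vein 27, while early AVFs had 4.20 to 40.8, so that its early log2 value of 1.56 (adjusted p = 0.388) became 6.16 and was called without vein 27. *Kcnmb1*, the beta subunit of the BK channel in smooth muscle, had 0 to 55.8 CPM in the contralateral group, 8.91 to 49.3 in early AVFs and 30.1 to 41.5 in late AVFs (log2 0.52 and 0.97, adjusted p = 0.633 and 0.455). The BK pore gene *Kcnma1* had an early log2 value of -1.34 (adjusted p = 0.0744).

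*Kcna1* and *Kcna2*, the Kv1.1 and Kv1.2 channels of myelinated fibers, spread widely within each group. *Kcna1* had 0 to 35.3 CPM in the contralateral group, 0.0472 to 21.3 in early AVFs and 21.0 to 83.6 in late AVFs, and *Kcna2* 0 to 60.2, 2.13 to 44.3 and 24.1 to 72.6. Schwann cell marker sums ranged from 29.3 to 430 CPM in contralateral veins, from 35.9 to 480 in early and from 238 to 1062 in late AVFs, and their part in these values was not tested. *Kcnk6* (TWIK-2, a two-pore channel known for potassium efflux in macrophages) had early, mid and late log2 values of -0.33, -0.26 and -0.05. *Kcnq1ot1* had -0.00, 0.39 and 0.19. Neither passed at any stage, and the sign of the early value turned with the processing in both.

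No difference between mid and late AVFs was detectable by edgeR with 5 vessels each. Between late and mid AVFs 0 members were called by edgeR, as were 0 of all genes (0%), and 0 members had an unadjusted p under 0.05, beside 0.344% of all genes. The fitted values ran from -1.42 to 3.54 on the log2 scale, with 34 of 50 above 0, so likeness of the 2 stages is not shown. Between mid and early AVFs 0 members were called and 3 had an unadjusted p under 0.05, beside 0.00594% of all genes called and 10.5% under 0.05. DESeq2 called 0 members in both comparisons (0.0119% of all genes between late and mid, 3.12% between mid and early), and limma-voom 0 between late and mid (0.119%) but 5 between mid and early (4.53%). Every late AVF exceeded every early AVF in 6 members (*Kcne4*, *Kcnab1*, *Kcnt2*, *Kcnk2* and *Kcnc2* among them), beside 7.37% of all genes.

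Other genes of membrane potential and calcium handling were read beside the channels, from lists chosen with earlier results known. Of 5 tested genes of the cGMP pathway, through which nitric oxide relaxes smooth muscle, 4 were called lower in early AVFs and 0 higher, beside 5.41% of all genes lower. The mural and endothelial markers fell at the same stage (6 of 8 called lower in each list), and their part in these values was not tested. *Gucy1a1*, a subunit of the nitric oxide receptor, averaged 366 CPM in contralateral veins and 31.4 CPM in early AVFs (log2 -3.54, adjusted p = 5.51e-08). *Gucy1b1*, *Pde5a* and *Nos3* had log2 values of -2.57, -2.18 and -2.20 (adjusted p = 0.000296, 0.0028 and 0.000327). Of 11 genes of calcium release and entry, 3 were lower (*Itpr1*, *Stim1* and *Stim2*) and 1, the skeletal muscle release channel *Ryr1*, was higher, as were 7 of 9 tested skeletal muscle markers. *Itpr1*, a receptor for IP3, averaged 154 CPM in the contralateral group and 48.4 CPM in early AVFs (log2 -1.67, adjusted p = 4.56e-06). Of 9 voltage-gated calcium channel genes, *Cacna1d* was higher in early AVFs and 8 were not called, and of 10 TRP and mechanosensitive channels 0 were called by edgeR. *Ano1*, the calcium-activated chloride channel, went from 122 to 22.8 CPM (log2 -2.42, adjusted p = 3.21e-05).

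The single-cell libraries gave the cell classes in which the members were read. Of 26438 barcodes 16893 were kept, 6319 contralateral, 4753 early and 5821 late, with median counts of unique molecular identifiers (UMIs) of 2751, 8951 and 15425. They shared 5 to 6 barcodes between libraries. Cells were clustered without *Kcn* genes or cell markers, and a level is the UMIs of a gene per 1000000 UMIs of the class in 1 library (CPM of the class). Of the 50 members, 44 had at least 30 UMIs. Averaged over the libraries with at least 20 cells of a class, which left out the 10 early Schwann cells, the highest level was in mural cells for 15, fibroblasts for 8, Schwann cells for 7, endothelium for 5, T cells for 4, dendritic cells for 2, neutrophils for 2 and monocytes and macrophages for 1. *Kcnj3* had 1 UMI.

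**Figure D4:**
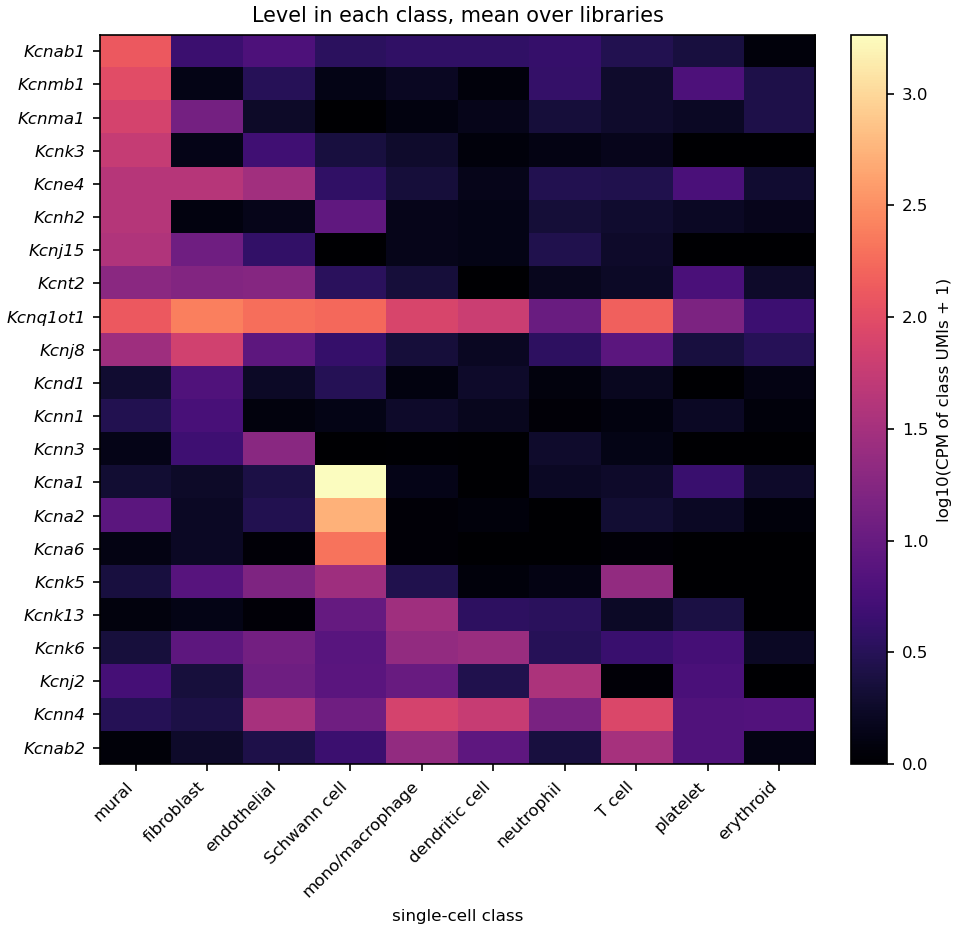
Level of 22 members in the named single-cell classes, as log10 of the CPM of the class (averaged over libraries) plus 1 in color. *Kcna1* stood at 1831 CPM in Schwann cells, and *Kcnab1* at 128 in mural cells against 5.25 in endothelium, its next class.

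Mural cells held the widest set. *Kcnab1* averaged 128 CPM there, *Kcnmb1* 96.7 and *Kcnma1* 74.1, while their next classes were endothelium at 5.25, platelets at 5.21 and fibroblasts at 12.1. *Kcnk3* averaged 56.3 in mural cells and 3.95 in endothelium, and *Kcnh2* (the Erg1 channel) 41.6 and 8.01 in Schwann cells. *Kcne4* was shared by mural cells (42.9) and fibroblasts (42.8), and *Kcnj8* was highest in fibroblasts (67.5), then mural cells (27.0).

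Schwann cells held the highest level of 3 Kv1 genes. *Kcna1* averaged 1831 CPM and no more than 3.40 in any other class, *Kcna2* 535 against 7.18 in mural cells, and *Kcna6* 203 against 0.655 in fibroblasts. A further Kv1 gene, *Kcna5*, averaged 30.7 in mural cells and 0 in Schwann cells, on only 80 UMIs in all. With UMIs summed over libraries *Kcna5* was highest in endothelium. *Kcnj10* was highest in Schwann cells, at 27.5 (86 UMIs in all). Among leukocytes *Kcnn4* averaged 83.1 in T cells and 75.4 in monocytes and macrophages, *Kcnab2* 31.8 and 21.5 in the same classes, *Kcnk13* (THIK-1) 27.6 in monocytes and macrophages, and *Kcnj2* 35.0 in neutrophils. *Kcnk6* was divided between dendritic cells (24.5) and monocytes and macrophages (22.1).

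Levels also differed among the 3 libraries within a class. With 1 library per condition there is no test, and the exact 95% Poisson intervals cover counting error only. The contralateral library held 30 mural cells, against 229 early and 514 late. In them *Kcnk3* was at 143 CPM (104 to 192; 44 UMIs), 17.8 (14.3 to 21.97) in early and 8.39 (6.88 to 10.1) in late AVFs. *Kcnab1* was at 185 (140.0 to 239.5), 107 (98.3 to 117) and 93.3 (88.0 to 98.7), and *Kcne4* at 87.6 (57.7 to 127), 25.5 (21.3 to 30.4) and 15.7 (13.6 to 18.0). The contralateral values of these genes were the highest of the 3. *Kcnmb1* went the other way, at 55.1 (32.1 to 88.3), 120.2 (110.7 to 130.3) and 115 (109 to 121), and *Kcnh2* was at 45.4 (24.8 to 76.2), 44.6 (38.9 to 50.9) and 34.9 (31.7 to 38.3), with a contralateral interval that covered both others.

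*Kcnj15* had 0 UMIs in the 30 contralateral mural cells, which at this depth allows up to 9.73 CPM, but 58.8 (52.2 to 65.9) in early and 53.6 (49.6 to 57.8) in late mural cells. In fibroblasts it had 0.0775 CPM in the contralateral library, 23.1 in early and 9.93 in late. The bulk contralateral veins read 0 in 5 of 7 for the same gene. Vein 27, however, had 44.9 CPM, above every early AVF, and the bulk change was not called.

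In fibroblasts *Kcnj8* stood at 109 CPM (104 to 115) in the contralateral library, 52.4 (48.4 to 56.8) in early and 40.8 (39.1 to 42.6) in late. *Kcne4* was lower in contralateral fibroblasts, 29.0 (26.1 to 32.1), than in early, 57.2 (52.9 to 61.7), and late ones, 42.3 (40.5 to 44.2). In mural cells the contralateral library was instead the highest, and early exceeded late in both classes. *Kcnma1* was at 4.34 in contralateral, 14.8 in early and 17.0 in late fibroblasts. Most contralateral fibroblasts formed 1 cluster (1655 of 1854 cells) and most AVF fibroblasts 2 others, so these values compare different clusters as well as conditions.

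In endothelium *Kcnt2* was at 41.1 CPM in the contralateral library and at 5.89 and 3.91 in the early and late libraries. *Kcnn3* was at 6.398, 8.83 and 39.1. The early and late libraries held 67 and 74 endothelial cells with 679305 and 511487 UMIs over all genes. Their values for both genes therefore rest on few UMIs. The late *Kcne4* level in endothelium, 80.2, rested on 1 cell with 41 UMIs.

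In monocytes and macrophages *Kcnn4* stood at 10.2 CPM (7.15 to 14.0) in the contralateral library, 74.5 (71.4 to 77.7) in early and 142 (137 to 147) in late AVFs. T cells had 61.1 (52.4 to 70.7), 44.9 (34.0 to 58.2) and 143 (132 to 155). *Kcnk6* and *Kcnab2* had the opposite order in monocytes and macrophages, 39.3 (33.1 to 46.3), 14.7 and 12.4, and 29.9 (24.6 to 36.1), 19.6 and 14.9. *Kcnk13* did not differ beyond counting error between the contralateral library, 29.1 (23.8 to 35.2), and the late one, 29.2 (27.1 to 31.5), and the early library was lower than the late one at 24.5 (22.7 to 26.3). *Kcnj2* in neutrophils was at 24.1 (7.82 to 56.2), 48.7 (41.4 to 57.0) and 32.2 (22.2 to 45.3). *Kcnab2* was thus higher in bulk early AVFs and lower per macrophage UMI, in early vessels taken on average later than the bulk ones. Monocytes and macrophages were 12.0% of kept contralateral barcodes, 41.8% of early and 27.3% of late ones. T cells, where *Kcnab2* averaged highest, were 9.9%, 3.5% and 9.7%. The part of these shares in the bulk values was not tested. As with fibroblasts, contralateral macrophages lay mainly in 1 cluster (696 of 760 cells) and AVF macrophages in 2 others.

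**Figure D5:**
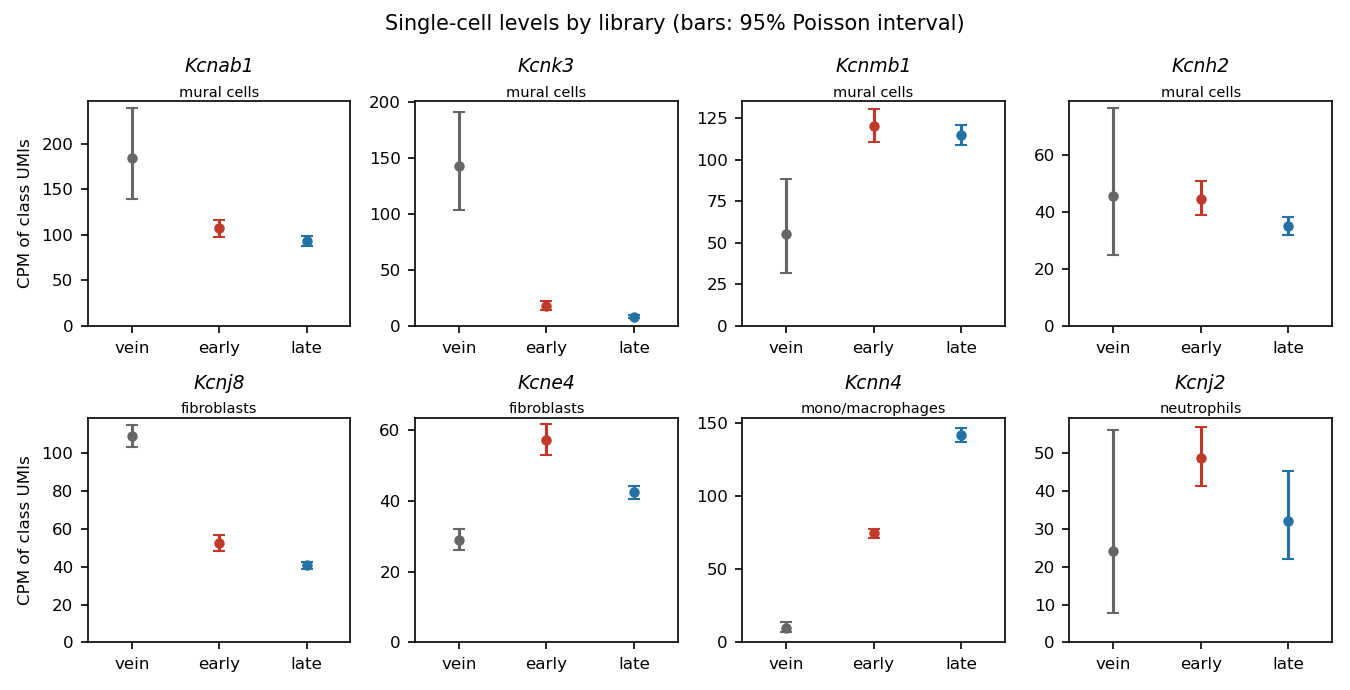
Level (CPM of the class) of potassium channel genes in the contralateral, early and late single-cell libraries, with exact 95% Poisson intervals. *Kcnn4* in monocytes and macrophages goes from 10.2 to 74.5 and 142, and *Kcnk3* in mural cells from 143 to 17.8 and 8.39.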

How the data were processed

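Bulk poly(A) RNA sequencing gave 1 table of raw counts per gene, which the authors deposited without normalization; the genome build of that table is not stated in the sources read. Gene symbols were matched by Ensembl ID to the deposited single-cell feature lists. Members and gene lists were chosen with earlier results of these data known. Counts were tested in edgeR 4.0.16 (R 4.3.3) with TMM factors and the quasi-likelihood test over all 25 libraries and 4 groups, keeping 16849 genes with a mean of at least 20 counts, and p-values were adjusted over all of them. Levels are CPM on TMM-scaled library sizes. Each SE was taken as the fold change divided by the square root of F. Named members were the 12 with the highest mean CPM and those called in any comparison, apart from some genes not reported here. Zero contralateral counts were set against a floor of 3 counts over the group, which covers counting error only. Samples of a group were different vessels, and 0 pairs of libraries held identical member counts. Alternatives included DESeq2 1.42.0, limma-voom 3.58.1, other filters, sex and leaving out each library. Scripts were tested on simulated data.

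The deposited single-cell UMI counts per gene and barcode (10x 3′ chemistry, 3 libraries) were kept at 200 to 6000 genes and at most 10% mitochondrial counts and clustered in scanpy 1.11.5 with 2000 variable genes, 12 components and resolution 0.5, without *Kcn* and marker genes. Clusters were named from marker lists, 2 clusters stayed unnamed, and different names from the study's may follow. Doublets were scored but kept (2 early and 120 late called). Promoter sequences were from RefSeq.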

Additional observations from a re-analysis of the deposited data

Results flagged for a closer look

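Single libraries stood apart from their group in 15 of 72 group comparisons of named members, by the gap of the highest value to its neighbor relative to the group's range. The limits used would flag about 1 in 20 by chance if the values were normally distributed. These CPM were on a linear scale and often skewed toward high values, and each of the 15 was the highest of its group. The rate of 1 in 20 therefore cannot be applied here, and whether 15 of 72 exceeds chance was not tested. Early AVF 7 held 5 of the 15, with *Kcnc4* at 12.8 CPM, *Kcnk10* at 13.2, *Kcnq5* at 9.65, *Kcnj10* at 9.29 and *Kcnh7* at 6.97, the library with the highest neuron marker sum (3692 CPM).

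The others were highest in their group too. Among contralateral veins these were *Kcnk6* in vein 34 (88.6 CPM), *Kcnj15* in vein 27 (44.9) and *Kcnq5* in vein 633 (0.206). Among early AVFs they were *Kcnq1ot1* (208) and *Kcnj8* (76.0) in AVF 10 and *Kcnab2* in AVF 6 (39.0). Among mid AVFs they were *Kcnq1ot1* (169) and *Kcnc4* (4.59) in AVF 12 and *Kcnab1* in AVF 13 (36). In late AVFs it was *Kcna1* in AVF 16 (83.6).

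The change of *Kcna5*, the Kv1.5 channel, from contralateral to early differed between the sexes at an adjusted p under 0.05, with an interaction of -9.51 on the log2 scale (edgeR quasi-likelihood test, adjusted p = 0.0272). It does not pass the 0.01 used for calls, and its size depends on the prior count because 5 female contralateral veins were at 0. It rested on 1 male contralateral vein, 633, at 18.2 CPM. The other male and all 5 female contralateral veins were at 0, and early AVFs had 0.732 to 1.43 CPM in 3 females and 1.56 to 7.35 in 5 males.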

How the results depend on the processing

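None of the 26 called changes turned direction in 10 alternative settings or in 25 fits that left out 1 library. Of the 10, the adjusted p under 0.05 used the main fit, so its directions were fixed. Genes at 0 in all contralateral veins, or with groups that did not overlap, could hardly turn in the 25 fits. Nor did the 15 changes that could be followed at a mean normalized count of at least 100 turn. Of the 26, 18 kept their call in every fit without 1 library. Members called in early, mid and late AVFs against contralateral veins and in late against early (13, 6, 6 and 1) became 21, 13, 14 and 2 with DESeq2, 5, 2, 2 and 12 with limma-voom and sample weights (5 in mid against early), 4, 3, 3 and 2 with only the 2 groups compared, 3, 1, 1 and 0 with female mice only, 20, 11, 13 and 2 at an adjusted p under 0.05, and 8, 3 and 2 with a mean normalized count of at least 100. The shares of all genes called beside these were 22.7%, 14.8%, 14.4% and 5.14% with DESeq2, 4.66%, 2.45%, 1.26% and 10.7% with limma-voom, 5.86%, 5.64%, 4.69% and 2.53% with 2 groups, 4.57%, 3.39%, 2.91% and 0% with females, 22.2%, 13.7%, 13.5% and 3.80% under 0.05, and 12.6%, 6.05% and 5.33% at the mean of 100. In limma-voom the median of all genes was 0.67, 0.80 and 0.82 at the 3 stages. The late against early count was 0 with DESeq2 size factors, filterByExpr, no filter, sex as a term, and without early AVF 7, late AVF 16 and late AVF 24, where the late count was 3. The cause was not tested. Leaving out 1 library gave 11 to 14 early, 5 to 10 mid (10 without contralateral 633), 2 to 9 late (3 without late 19, 2 without late 23, 9 without contralateral 633) and 0 to 1 late against early calls, and 0 in the other comparisons. Some uncalled early values turned sign: *Kcnq1ot1* (main -0.00) to 0.016 with DESeq2 size factors or DESeq2, 0.019 with the mean of 100, 0.26 with limma-voom, 0.037 in females, 0.011 with 2 groups, 0.0097 without the 3 libraries, and -0.33 to 0.28 without 1 library; *Kcnk6* (main -0.33) to 0.42 with limma-voom and -0.47 to 0.30 without 1 library; *Kcna2* (main -0.01) to 0.62 with limma-voom, 0.14 with sex as a term, and -0.36 to 0.71 without 1 library.

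In the single cells, the members highest in a class moved from 4 to 2 in T cells, 5 to 8 in endothelium and 2 to 1 in neutrophils with UMIs summed over libraries. At a resolution of 1.0 they became 0 in dendritic cells, 2 in monocytes and macrophages, 1 in neutrophils and 3 in NK cells, a class the main setting did not separate. Without the mitochondrial filter they became 0 in dendritic cells and 2 in monocytes and macrophages. No paired analysis was possible because the groups share no replicate numbers. Contralateral veins held most of the spread, and sexes were unevenly divided between contralateral veins and early AVFs. For 5 members at 0 in contralateral veins there is only a ratio to a floor that covers counting error. Only 30 contralateral mural cells stand behind their level.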

Other observations

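Among the less abundant members, *Kcnk13*, the macrophage channel THIK-1, had an early log2 value of 2.23 (adjusted p = 0.104) and was not called in bulk. *Kcna6*, highest in Schwann cells among the single cells, had log2 values of 1.72, 2.63 and 3.30 at the 3 stages, with no call.

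Genes of skeletal muscle excitation were called higher beside the channels. *Atp2a1*, the fast-twitch calcium pump, went from a mean of 0.284 CPM in contralateral veins to 75.4, 289 and 268 at the early, mid and late stage (adjusted p = 0.0018, 0.000808 and 0.000962), and *Ryr1* from 0.209 to 12.1, 40.7 and 24.2 (adjusted p = 0.00206, 0.00067 and 0.00151). The skeletal muscle marker sum reached 8900 CPM in 1 late AVF and its part in these values was not tested.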
